A study of Mus musculus with 12 samples.

Results

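BMI1-KO MM-MΦs, macrophages that lack the Polycomb protein BMI1 and were co-cultured with myeloma cells, were compared with wt MM-MΦs across all genes. The members were chosen from the labels by genotype and culture and are 6 of the 12 libraries of the series, 3 per genotype. wt libraries came from bone marrow of BMI1fl/fl mice and BMI1-KO libraries from BMI1fl/fl Mx1-Cre mice, induced at 6 to 8 weeks of age and taken 4 weeks after the poly I:C treatment. Both genotypes carried the floxed alleles and both received poly I:C (5 doses of 15 mg/kg), so that the Cre transgene was the intended difference. Neither the labels nor the paper's methods say whether the mice were littermates. Mx1-Cre is driven by an interferon-inducible promoter and acts in many tissues, so that the deletion was not limited to macrophages. Adherent marrow cells were grown in 5 ng/mL M-CSF for 7 days into MΦs. These were kept with 5TGM1, a mouse myeloma line, for another 48 h to give MM-MΦs, and CD11b+ F4/80+ cells were sorted for total RNA sequencing. Of 55573 genes in the count table, 14197 were tested.

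BMI1 is a core subunit of Polycomb repressive complex 1, which ubiquitinates histone H2A and keeps the promoters of developmental genes silent, often at CpG-rich sequence. Its best known target is the Cdkn2a locus, which encodes the cell cycle inhibitors p16Ink4a and p19Arf. In mice without Bmi1 the derepression of this locus limits the self-renewal of blood stem cells, from which macrophages descend.

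The 6 libraries held 9776630 to 11142768 counts each. The labels do not say if each library is a mouse of its own, and the p-values cover no more than the spread among the libraries, which may be technical. In bulk RNA, fewer cells of a type and less RNA per cell cannot be told apart. Libraries differed widely in proliferation genes, in the same order of replicate numbers in both genotypes but not at the same level. The mean log2 CPM (counts scaled to library size) of 50 tested mitotic genes was 3.16, 4.25 and 6.12 in wt MM-MΦ replicates 1, 2 and 3. In BMI1-KO MM-MΦs it was 2.03, 4.34 and 4.70. The sorted cells carried macrophage markers at like levels, with 24 of 25 markers at 10 or more counts in every MM-MΦ library and a summed level of 38890 to 51750 CPM in wt and 43930 to 51500 CPM in BMI1-KO. Bmi1 itself had 325, 281 and 364 counts in wt MM-MΦs, and its entry was 0 in each of the 3 BMI1-KO libraries. Those zeros may not be measurements. The library totals behind the deposited FPKM values exceeded the summed counts by 629, 671 and 700 in BMI1-KO MM-MΦ replicates 1, 2 and 3, and lay within 2 counts of them in the wt libraries. The BMI1-KO columns thus lack counts that those totals included. No fold change of Bmi1 was drawn.

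The promoters of Cdkn2a, Bmpr1a and Igf2bp3 are shown first, since CpG-rich promoters are a known binding place of the complex. These genes had the largest log2 fold changes of the called genes described here, though not all had the smallest adjusted p. Of the 7 called genes described here, 6 had an entry in the RefSeq promoter table (build GRCm38.p6). The 250 bases before each start were read on the gene's strand, and capitals mark CG pairs. Cdkn2a has 2 entries, both on the minus strand. The upstream start at chr4:89294620-89294869, that of the p19Arf transcript, held 40 CG pairs. The downstream start at chr4:89282193-89282442, that of the p16Ink4a transcript, held 7. Bmpr1a at chr14:34502547-34502796 (minus strand) held 36 and Igf2bp3 at chr6:49214955-49215204 (minus strand) held 21.
Cdkn2a upstream: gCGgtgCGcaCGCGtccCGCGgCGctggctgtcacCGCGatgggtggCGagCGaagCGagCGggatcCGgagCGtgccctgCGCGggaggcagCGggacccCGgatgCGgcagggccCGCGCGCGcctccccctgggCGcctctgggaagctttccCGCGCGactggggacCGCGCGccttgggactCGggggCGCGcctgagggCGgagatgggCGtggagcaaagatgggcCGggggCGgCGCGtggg
Cdkn2a downstream: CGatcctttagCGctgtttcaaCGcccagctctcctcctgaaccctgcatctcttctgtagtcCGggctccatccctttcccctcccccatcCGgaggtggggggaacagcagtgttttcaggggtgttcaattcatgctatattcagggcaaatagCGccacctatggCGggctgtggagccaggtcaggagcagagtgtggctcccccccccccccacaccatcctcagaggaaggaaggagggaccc
Bmpr1a: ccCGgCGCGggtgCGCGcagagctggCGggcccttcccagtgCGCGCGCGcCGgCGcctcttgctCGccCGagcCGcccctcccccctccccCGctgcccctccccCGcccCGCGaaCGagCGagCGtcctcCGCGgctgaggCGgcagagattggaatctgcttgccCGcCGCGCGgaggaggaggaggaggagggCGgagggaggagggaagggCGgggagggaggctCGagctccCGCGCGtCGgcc
Igf2bp3: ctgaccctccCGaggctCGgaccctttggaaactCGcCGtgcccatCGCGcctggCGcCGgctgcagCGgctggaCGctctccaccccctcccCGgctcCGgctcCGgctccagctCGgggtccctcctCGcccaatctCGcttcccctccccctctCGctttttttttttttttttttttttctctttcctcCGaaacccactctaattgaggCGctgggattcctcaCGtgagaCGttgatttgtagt

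Over all 32851 promoters of this length in the table the median was 6 CG pairs, with quartiles of 2 and 16. A count of 40 or more was held by 1.31% of them, 36 or more by 2.58%, 21 or more by 16.3% and 7 or more by 46.3%. Crip1, the called gene that fell, held 13 (31.5% hold as many). Cdc42bpa had entries with 10 and 4 and B3galt5 entries with 9, 6 and 20. The called genes thus ranged from the CG-richest promoters to ordinary ones. Of genes described below that were not called, Lhx8 held 4 (62.2% hold as many) and Hmga2 held 8 (43%). Read counts per gene do not tell which Cdkn2a start was used.

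In the main edgeR fit few genes of MM-MΦs separated the genotypes beyond the spread between libraries. Besides Bmi1, 8 genes passed edgeR's adjusted p of 0.05, of which 7 rose (0.0493% of genes tested) and 1 fell. All genes together gave 9 calls (0.0634%), 2 of them lower (0.0141%, Bmi1 and Crip1). The call of Bmi1 rests on the BMI1-KO zeros that may not be measurements, so that it is no result here. Without the adjustment 712 genes (5.02%) had p under 0.05, 361 (2.54%) higher and 351 (2.47%) lower. These 2 shares are the ones to set beside the list counts below. Few calls with 3 libraries per group do not show that little changed. DESeq2 called 89 genes, and edgeR with the replicate number as a block called 181.

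Cdkn2a (chr4:89274471-89294653, GRCm38) went from silent to expressed. Its counts were 0, 0 and 1 in wt libraries but 108, 159 and 230 in BMI1-KO libraries, so that the groups lay far apart. The ratio of the summed counts, each over the library totals, was 506, with a 95% exact binomial interval of 90.5 to 20040 that covers counting error only (adjusted p by edgeR = 0.00205). Cdkn2b, the neighbouring gene of the inhibitor p15Ink4b, had 8, 1 and 6 counts in wt and 25, 24 and 50 in BMI1-KO. Its log2 fold change of 2.70 (SE 0.62) had an unadjusted p of 0.00104 and an edgeR adjusted p of 0.263. Of the 7 cyclin-dependent kinase inhibitors tested, these 2 had p under 0.05, both higher (2.54% of all genes). Both could pass the filter on low counts through their BMI1-KO libraries alone, so that this count is no support for a direction. Cdkn1a, the p53 target p21, had 2117 to 2548 counts in wt and 2259 to 2767 in BMI1-KO (log2 fold change 0.21, SE 0.12). Cdkn1b, the gene of p27, had 563 to 687 against 400 to 551 (−0.34, SE 0.20).

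Bmpr1a (chr14:34410734-34503341), a type I receptor for bone morphogenetic proteins, had nearly equal counts in the BMI1-KO libraries. Its counts were 17, 37 and 38 in wt MM-MΦs and 485, 480 and 488 in BMI1-KO MM-MΦs, or 2.95 ± 1.12 CPM against 47.8 ± 3.96 CPM (SD, n = 3). On the log2 scale that was a rise by 4.01 (SE 0.34, adjusted p by edgeR = 0.000755). It stood alone in its pathway. Among 33 tested ligands, receptors, Smads and inhibitors of bone morphogenetic protein and TGF-β signalling, Bmpr1a was the only member with p under 0.05, and the median log2 fold change of the list was 0.01 (median of all genes −0.01).

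Igf2bp3 (chr6:49085223-49214957), an RNA-binding protein of fetal tissues and of tumours, had 186, 114 and 58 counts in wt libraries and 1013, 1205 and 1339 in BMI1-KO libraries. The group means were 11.8 ± 6.74 and 116 ± 7.30 CPM (SD, n = 3), or 3.30 apart on the log2 scale (SE 0.49, adjusted p by edgeR = 0.0422). Every BMI1-KO library lay above the highest wt library by a wide margin. B3galt5 (chr16:96235801-96319859), a galactosyltransferase of glycolipid synthesis, was lowly expressed, with 13, 5 and 8 counts in wt and 89, 65 and 57 in BMI1-KO (log2 fold change 3.05, SE 0.45, adjusted p by edgeR = 0.0422).

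Cdc42bpa (chr1:179960472-180165603), a kinase that acts with CDC42 on the actin cytoskeleton, had 87, 70 and 79 counts in wt and 290, 417 and 478 in BMI1-KO. This was a 5.04-fold rise (log2 fold change 2.33, SE 0.28, adjusted p by edgeR = 0.00927). Gdpd5 (chr7:99381414-99461877), a membrane glycerophosphodiesterase, rose 2.84-fold from 288, 221 and 315 counts to 600, 726 and 991 (SE 0.18 on the log2 scale, adjusted p by edgeR = 0.00927). Crip1 (chr12:113146316-113153879), a small LIM protein, fell by 1.33 on the log2 scale (SE 0.19, adjusted p by edgeR = 0.0422), from 296, 334 and 468 counts to 113, 127 and 190. None of the 7 genes described had overlapping libraries, which held for 1257 of all genes (8.85%).

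The calls differed in how far they rested on a given library. Bmpr1a and Cdkn2a passed in all 6 fits that left out 1 MM-MΦ library, with adjusted p up to 0.00698 and 0.0325. Cdc42bpa and Gdpd5 lost the call (adjusted p up to 0.0970) without wt replicate 2, wt replicate 3 or BMI1-KO replicate 2. Igf2bp3, B3galt5 and Crip1 lost it in each of the 6 fits, at adjusted p of 0.0505 to 0.238, 0.0505 to 0.226 and 0.0505 to 0.238, while Igf2bp3 kept a log2 fold change of 2.95 to 3.79.

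**Figure D1:**
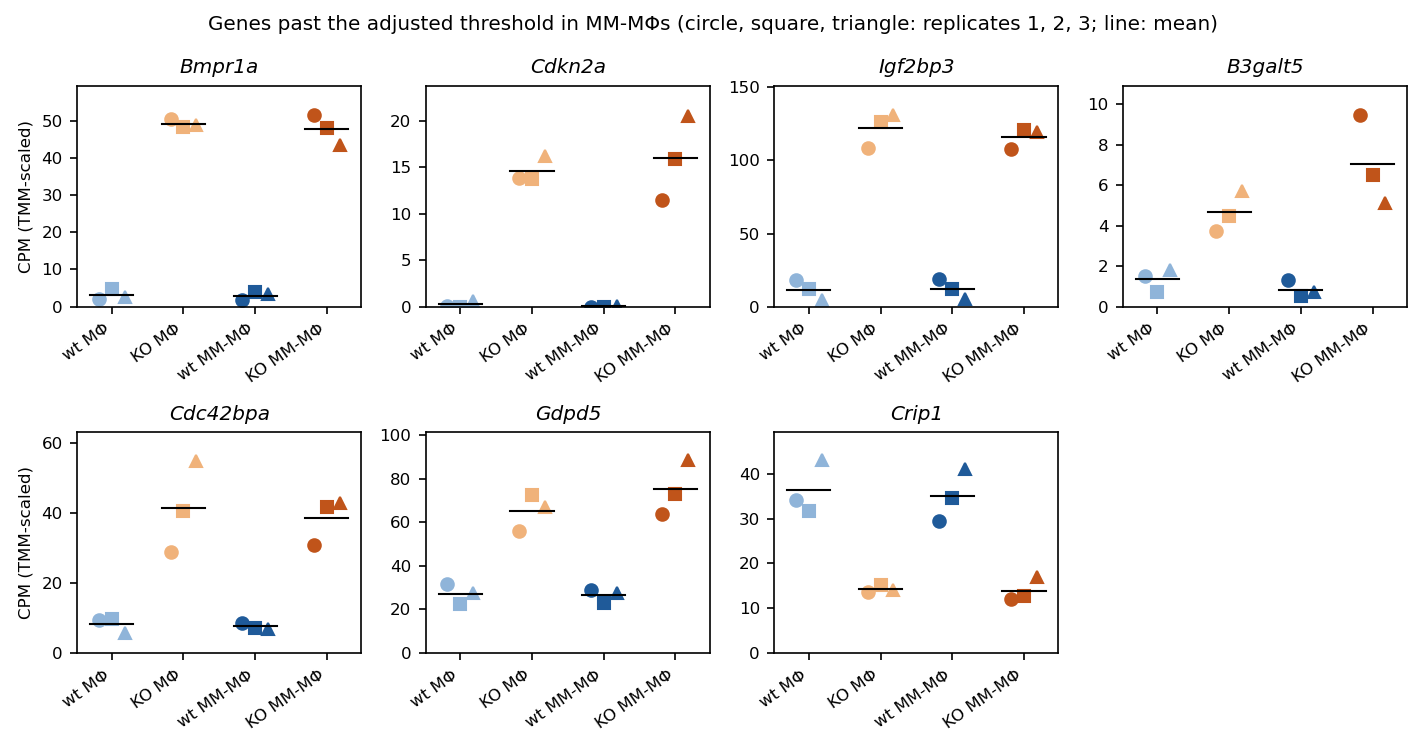
TMM-scaled CPM (linear axes from 0) of the 7 called genes described, with a point per library and a line at the mean of each group of 3. In MM-MΦs no BMI1-KO library overlaps a wt library, and Bmpr1a has a BMI1-KO mean of 47.8 against 2.95 CPM in wt.

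Genes just short of the threshold were taken by their p, with a mean of at least 5 CPM in the higher group and no overlap between groups. Such lack of overlap was common, since 624 genes (4.40%) lay wholly higher and 633 (4.46%) wholly lower in BMI1-KO. Slc2a9, a urate transporter, had 227, 180 and 270 counts in wt and 401, 374 and 433 in BMI1-KO (log2 fold change 0.87, SE 0.14, adjusted p by edgeR = 0.0759). Plag1, a zinc finger factor of fetal growth, had 35, 62 and 40 against 181, 173 and 167 (1.94, SE 0.34, adjusted p by edgeR = 0.113). Runx3, a Runt factor of leukocytes, had 52, 44 and 105 counts against 121, 280 and 331 (1.89, SE 0.36). Serpine2, a protease inhibitor, had 27, 8 and 4 against 87, 152 and 139 (3.25, SE 0.65). Raet1e, a ligand of the NKG2D receptor, had 4, 4 and 29 against 94, 164 and 248 (3.81, SE 0.79). The scaffold protein Sh3pxd2a and the GTPase regulator Arap3 were at 0.74 (SE 0.14) and 1.05 (SE 0.21) on the log2 scale.

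On the lower side, Fabp7, a fatty acid binding protein, had 293, 535 and 550 counts in wt and 105, 143 and 109 in BMI1-KO (log2 fold change −1.91, SE 0.30, adjusted p by edgeR = 0.0592). Prokr1, a prokineticin receptor, had 181, 221 and 160 against 41, 48 and 47 (−2.04, SE 0.33, adjusted p by edgeR = 0.0668). Fzd1, a Wnt receptor, had 89, 112 and 129 against 48, 25 and 26 (−1.68, SE 0.36) and was the sole member of 13 tested Wnt pathway genes with p under 0.05. Ksr1, a scaffold of the MAP kinase cascade, was at −1.41 (SE 0.27), and Kmt5a, a histone H4 methyltransferase, at −0.59 (SE 0.12). In edgeR none of the genes named here as short of the threshold passed it, nor did any with limma-voom, while DESeq2 called each of them. Across the 6 fits that left out a library the only edgeR call among these 5 lower genes was Fabp7, in 1 fit (smallest adjusted p = 0.0489).

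Developmental genes, which are classical Polycomb targets, were mostly silent in both genotypes. Of 104 listed developmental transcription factors 15 passed the filter on low counts, as did 4 of 39 Hox genes. Since a gene could pass this filter through its BMI1-KO libraries alone, the counts describe these members and are no support for a direction. Among the 15 factors, 8 had p under 0.05 with a higher level in BMI1-KO (2.54% of all genes) and 1 with a lower level (2.47%), and their median log2 fold change was 0.72. Lhx8, a LIM homeobox factor of neurons and germ cells, had 0, 0 and 0 counts in wt and 12, 15 and 22 in BMI1-KO. Against a floor of 3 counts over the wt group this was at least 16.6-fold higher. Dlx2, a homeobox factor of the forebrain, had 4, 2 and 3 against 19, 23 and 83 counts (3.71, SE 1.03). Hoxb3 had 17, 22 and 19 counts against 55, 32 and 41 (1.17, SE 0.44), and Hoxa7 had 9, 3 and 0 against 8, 11 and 38, which overlapped. These stayed low in absolute terms, and none of the 4 named here passed the adjusted test in edgeR. Lhx8 passed with DESeq2 (adjusted p = 0.000508) and limma-voom (adjusted p = 0.00976), and Dlx2 with DESeq2 (adjusted p = 0.0350).

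The oncofetal genes, those of fetal tissue that return in tumours, had 3 of 7 tested members with p under 0.05, all higher (2.54% of all genes). Igf2bp1 could pass the filter on low counts through its BMI1-KO libraries alone, so that this count too is no support for a direction. Beside Igf2bp3 these were Hmga2 and Igf2bp1. Hmga2, a chromatin protein of fetal and stem cells, had 25, 16 and 12 counts in wt MM-MΦs and 60, 200 and 500 in BMI1-KO (log2 difference 3.77, SE 0.81, adjusted p by edgeR = 0.213). Igf2bp1 had 0, 0 and 3 counts against 14, 22 and 73, 37.0 times as many per total count (counting interval 12.3 to 182). On the per-length scale (FPKM) the 3 family members ranked differently by genotype. In wt libraries Igf2bp2 had the highest level (7.73, 10.9 and 6.44 FPKM), above Igf2bp3 (2.11, 1.41 and 0.67). In BMI1-KO libraries Igf2bp3 (12.7, 15.0 and 14.7) lay above Igf2bp2 (5.71, 6.48 and 10.7) in every library, and Igf2bp1 reached at most 0.68.

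Genes of stem and progenitor cells, 3 of which were among the factors above, did not all move the same way. Of the tested members 5 lay above 0 and 3 below, with log2 fold changes of −1.54 to 2.72. Of 8 tested, 5 had p under 0.05 with a higher level in BMI1-KO and 1, Procr, with a lower level (2.54% and 2.47% of all genes), and 9 of the 17 listed did not pass the filter. Sox4, a factor of progenitors, had 136, 186 and 195 counts against 248, 370 and 366 (log2 fold change 0.95, SE 0.20). Cd34, the surface marker of progenitors and vessels, had 212, 132 and 149 against 311, 514 and 1050 (3.73-fold, SE 0.44 on the log2 scale). Tal1, a master factor of early blood cells, had 125, 59 and 121 against 138, 186 and 288 (1.02, SE 0.34). The summed level of all 17 was 135 to 171 CPM in wt and 189 to 286 CPM in BMI1-KO MM-MΦs, and 2 members were at 0 in all 6 libraries.

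**Figure D2:**
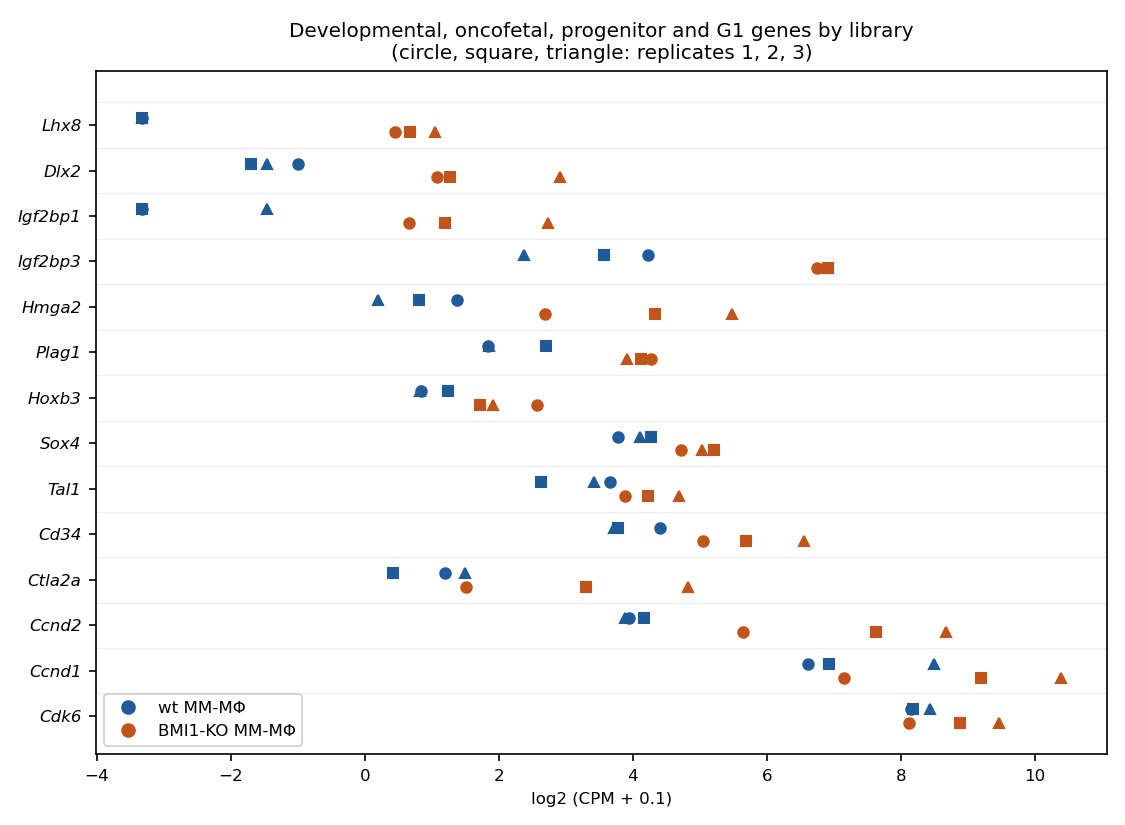
log2 (CPM + 0.1) of developmental, oncofetal, progenitor and G1 genes in each MM-MΦ library, blue for wt and orange for BMI1-KO. Lhx8, with 0 counts in all 3 wt libraries, sits at the left edge, and Hmga2, Cd34, Ctla2a, Ccnd2 and Ccnd1 have their highest level in BMI1-KO replicate 3.

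The D cyclins, which start the G1 phase with Cdk4 and Cdk6, differed in level between libraries as much as between genotypes. Ccnd2 had 154, 172 and 167 counts in wt MM-MΦs, a narrow range, and 470, 1968 and 4558 in BMI1-KO (log2 difference 3.78, SE 0.81, adjusted p by edgeR = 0.213). The lowest BMI1-KO library lay above the highest wt library, yet the BMI1-KO libraries spanned nearly a factor of 10. Ccnd1 had 982, 1171 and 4106 counts against 1339, 5834 and 15011 and overlapped (1.84, SE 0.91). Cdk6 had 2842, 2797 and 3958 counts against 2617, 4704 and 7925 (0.66, SE 0.34). On the FPKM scale Ccnd1 (19.3 to 81.7 in wt, 29.1 to 286 in BMI1-KO) was above Ccnd2 (1.52 to 1.84 and 5.11 to 43.5) in every library, and Ccnd3 had 1.75 to 3.98 and 2.84 to 4.10. Among the 21 tested G1 cyclins, kinases, Rb and E2F genes, the median was −0.28. At p under 0.05, 1 was higher, Ccnd2, and 1 lower (2.54% and 2.47% of all genes). In the fit without wt MM-MΦ replicate 3, which kept BMI1-KO replicate 3, this median turned to 0.12, with 16 of 21 above 0.

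Replication and mitosis genes had lower medians in BMI1-KO, −0.65 for 50 replication genes, −0.97 for 50 mitotic genes and −1.08 for 60 clustered histone genes. In the edgeR model of the 4 group means 0 of the 50 replication and 0 of the 50 mitotic genes had p under 0.05, and 2 histone genes did, both lower. DESeq2 gave 0 replication genes, 1 mitotic gene and 2 histone genes at that threshold. These medians turned to 0.22, 0.31 and 0.18 without wt MM-MΦ replicate 3, whose mitotic mean was the highest of the 6. That fit kept BMI1-KO replicate 3, the highest of its genotype at 4.70, so that the replicate numbers were not matched between genotypes. With the replicate number as a block, more of these genes were lower at an unadjusted p under 0.05 in edgeR (last section). Without both libraries numbered 3 the replication median was −0.14, with 37 of 50 below 0. Of 32 p53 targets tested 22 lay above 0, with a median of 0.12. Zmat3, an RNA-binding p53 target, was higher (434, 487 and 507 counts against 537, 706 and 820, log2 fold change 0.54, SE 0.16) and Steap3, a metalloreductase, lower (−0.50, SE 0.19).

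**Figure D3:**
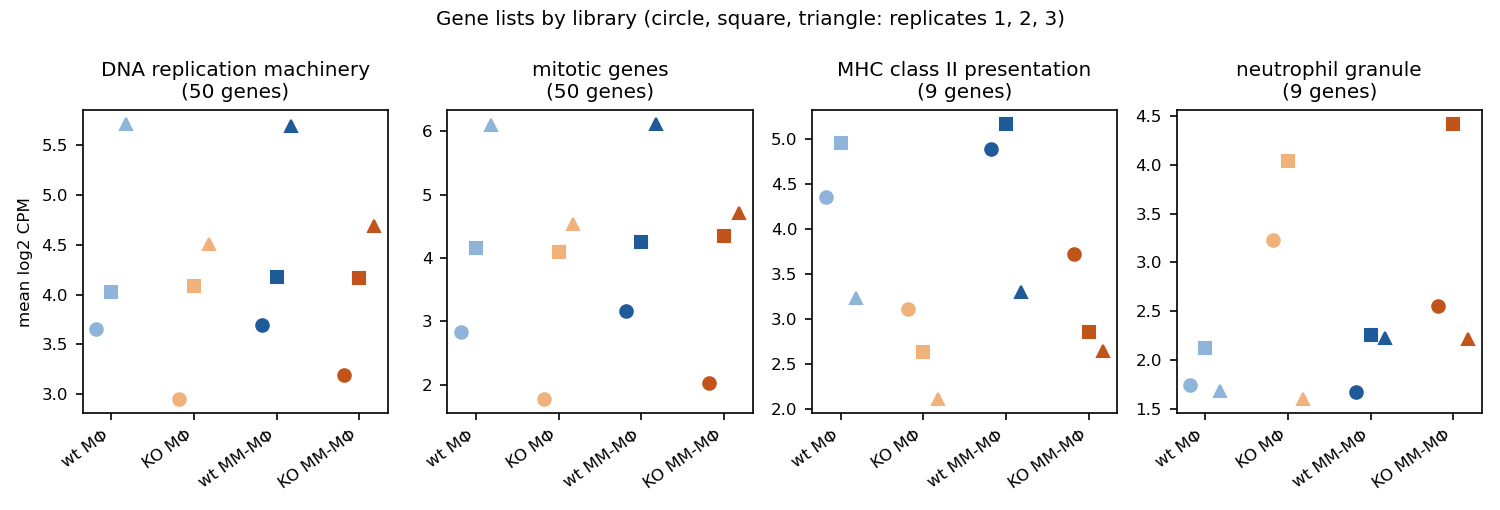
Mean log2 CPM of the tested members of 4 gene lists in all 12 libraries (circle, square and triangle for replicates 1, 2 and 3). Replicate 3 has the highest replication and mitotic mean in each group, BMI1-KO MM-MΦ replicate 2 the highest neutrophil granule mean, and 2 of the 3 BMI1-KO MM-MΦ libraries lie below all wt libraries for MHC class II genes.

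Few of the other Polycomb subunits differed between the genotypes. Of 24 tested genes of Polycomb repressive complex 1, 1 was higher at p under 0.05 and 1, Bmi1 itself, lower. The BMI1-KO zeros of Bmi1 may not be measurements. The median of the list was 0.05. Cbx8, a chromobox subunit that binds trimethylated histone H3, was not the gene that was higher at p under 0.05. Its counts were 25, 32 and 38 in wt against 34, 43 and 62 in BMI1-KO (0.56, SE 0.29, adjusted p by edgeR = 0.999). Of 12 tested genes of Polycomb repressive complex 2 none had p under 0.05, and their median was −0.13. This median turned to 0.16 without wt MM-MΦ replicate 3, in a fit that kept BMI1-KO replicate 3.

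Interferon-stimulated genes, the antiviral genes switched on by type I interferon, lay higher in BMI1-KO MM-MΦs as a list. Of 43 tested 41 had a log2 fold change above 0, with a median of 0.40, while 52.5% of all genes lay below 0. At an unadjusted p under 0.05, 16 were higher (2.54% of all genes) and 0 lower, and none passed the adjusted test (DESeq2 called 1). Ifit1, which binds foreign RNA, had 283, 232 and 269 counts in wt and 392, 671 and 620 in BMI1-KO (1.12, SE 0.23, adjusted p by edgeR = 0.213). Ifi44 had 232, 95 and 157 against 322, 359 and 266 counts (1.01, SE 0.31). Oas1a, which makes the activator of RNase L, had 482, 432 and 594 against 543, 724 and 766 counts (0.46, SE 0.14), and Ifih1, the RNA sensor MDA5, was at 0.44 (SE 0.14). Mx1, whose promoter drives the Cre transgene, had 287, 237 and 419 against 298, 698 and 527 counts, which overlapped (0.73, SE 0.29). Isg15 overlapped too, at 34, 19 and 59 against 27, 65 and 51.

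The libraries numbered 2 carried much of this difference. wt MM-MΦ replicates 1, 2 and 3 had a mean log2 CPM of 5.69, 5.43 and 5.74 over the 43 genes, against 5.87, 6.37 and 5.97 for the BMI1-KO replicates. Thus wt replicate 2 was the lowest and BMI1-KO replicate 2 the highest of the 6. The count with p under 0.05 fell to 4 without BMI1-KO replicate 2, to 6 without wt replicate 2 and to 1 without both, where 33 of 43 genes still lay above 0 with a median of 0.22. In MΦs without myeloma cells the list lay lower in both genotypes, at 4.26 to 4.35 in wt and 4.20 to 4.82 in BMI1-KO, and 35 of the 43 genes lay above 0 (median 0.20, 9 with p under 0.05, against 2.96% of all genes higher). No list member passed the test of a different genotype effect in the 2 cultures.

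**Figure D4:**
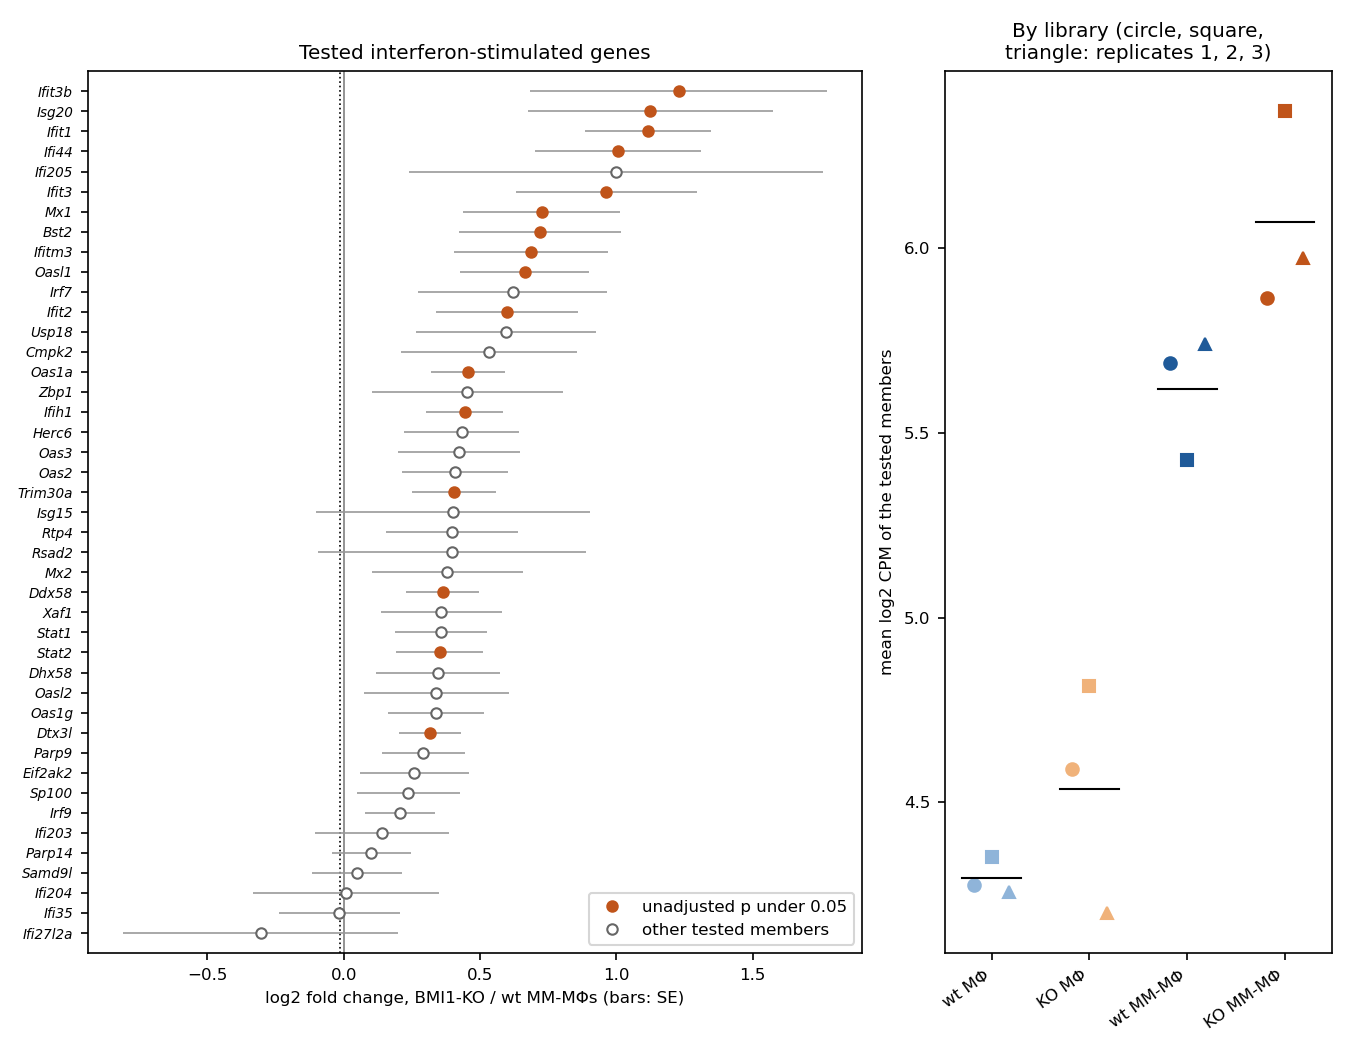
Left, log2 fold change (BMI1-KO over wt MM-MΦs, bars of 1 SE) of the 43 tested interferon-stimulated genes, filled where the unadjusted p is under 0.05 (16 genes), with a dotted line at the median of all genes. Right, their mean log2 CPM by library, where BMI1-KO MM-MΦ replicate 2 is the highest at 6.37.

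Genes of osteoclasts, the bone-resorbing relatives of macrophages, did not move together. Of 16 tested, 1 was higher and 3 lower at p under 0.05 (2.54% and 2.47% of all genes). Mmp9, the gelatinase of osteoclasts and invading cells, had 16, 40 and 32 counts in wt and 136, 260 and 369 in BMI1-KO (log2 fold change 3.10, SE 0.62, adjusted p by edgeR = 0.183). Acp5, the tartrate-resistant acid phosphatase, had 665, 1283 and 455 against 247, 179 and 106 (−2.16, SE 0.57). Ctsk, the collagen-cleaving cathepsin K, was at −1.36 (SE 0.55) and Atp6v0d2, a proton pump subunit, at −2.22, both with libraries that overlapped on the CPM scale. Among 14 tested matrix metalloproteinases and inhibitors, Mmp9 and the macrophage elastase Mmp12 had p under 0.05, in opposite directions. Mmp12 had 11229, 32452 and 10919 counts against 3232, 4793 and 6140 (−1.99, SE 0.52).

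The surface genes Itgax, Siglecf and Sdc1 belong to different lists and are set side by side because their values looked alike, so that they are no group with a test. The 17 tested leukocyte integrins, Itgax among them, had a median of 0.03. At p under 0.05, 2 were higher and 1 lower (2.54% and 2.47% of all genes). Itgax, the integrin CD11c, had 1882, 5719 and 1024 counts in wt and 504, 316 and 159 in BMI1-KO (−3.13, SE 0.86, adjusted p by edgeR = 0.496). Siglecf, a sialic acid receptor, had 108, 379 and 64 against 12, 21 and 9 (−3.73, SE 0.80). Sdc1, the syndecan CD138, had 607, 1298 and 362 against 188, 145 and 153 (−2.23, SE 0.63). Since Sdc1 also marks myeloma cells, the 19 plasma cell genes, Sdc1 among them, were summed. These gave 735 to 1102 CPM in wt and 682 to 896 CPM in BMI1-KO, with no member at 0. MΦs kept without myeloma cells already gave 489.5 to 801 CPM in wt and 423.1 to 621 CPM in BMI1-KO. The sum is thus no measure of myeloma cells alone. The mean log2 CPM of the 13 tested plasma cell genes was 2.88 to 3.77 in wt MΦs and 4.25 to 5.06 in wt MM-MΦs. In BMI1-KO it was 2.44 to 2.78 and 4.21 to 4.48. How much myeloma RNA the MM-MΦ libraries held was not tested. Sdc1 was the only 1 of 13 tested plasma cell genes with p under 0.05. Of the 6 fits that left out a library, the one without wt replicate 2 brought Itgax, Siglecf and Sdc1 closest to 0, at −2.06, −2.54 and −1.52, against −3.66, −4.15 and −2.58 at the other end.

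C-type lectin receptors, which recognise glycans and dying cells, were lower in part. Of 22 tested 17 lay below 0 (52.5% of all genes did), with a median of −0.43. At p under 0.05, 5 were lower and none higher (2.47% and 2.54% of all genes). Clec4a2, an inhibitory lectin of myeloid cells, had 862, 606 and 812 counts against 429, 270 and 474 (−0.93, SE 0.20, adjusted p by edgeR = 0.216). Clec12a had 3755, 3078 and 3125 against 1869, 2528 and 2736 (−0.47, SE 0.18), and Clec10a 80, 66 and 85 against 52, 43 and 31 (−0.82, SE 0.36). The count at p under 0.05 was 2 to 7 when a library was left out, with 12 to 18 genes below 0. Mrc1, the mannose receptor CD206 and an M2 marker, had 10380, 9757 and 11697 counts against 8972, 6405 and 5657, without overlap (−0.55, SE 0.28, edgeR adjusted p = 0.999).

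Markers of M2 (alternatively activated) macrophages had a median of −0.51 over 14 tested members. At p under 0.05, 3 were lower and 1 higher (2.47% and 2.54% of all genes). Folr2, the folate receptor of tissue-resident macrophages, had 721, 1268 and 1734 counts against 223, 482 and 802 (−1.30, SE 0.44). Arg1, the arginase, had 23, 476 and 411 against 25, 42 and 131 and overlapped (−2.23). M1 (classically activated) markers had a median of 0.06, with none of 13 at p under 0.05 in edgeR or DESeq2. This median turned to −0.07, −0.23 and −0.27 without wt replicate 2, wt replicate 3 or BMI1-KO replicate 1. Lgals3, the gene of galectin-3, was the sole galectin of 6 with p under 0.05, at 20974, 24253 and 13195 counts against 10767, 10102 and 10058 (−0.91, SE 0.32, adjusted p by edgeR = 0.749).

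All 9 tested genes of MHC class II antigen presentation lay below 0, with a median of −1.98 and 4 at p under 0.05. Of all genes 52.5% lay below 0 and 2.47% were lower at p under 0.05. H2-Ab1 had 295, 295 and 96 counts against 70, 26 and 18 (−2.56, SE 0.73, adjusted p by edgeR = 0.508), and Cd74, the invariant chain, 1350, 1413 and 311 against 363, 184 and 209, where wt replicate 3 lay within the BMI1-KO range (−2.03, SE 0.73). Leaving out a library gave 1 to 7 genes at p under 0.05. The 16 dendritic cell markers, of which Ccr7 and Siglech were at 0, summed to 247 to 735 CPM in wt and 206 to 271 CPM in BMI1-KO. Their part in the class II difference was not tested. The 24 class I presentation genes had a median of −0.03, and none had p under 0.05.

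Matrix and vessel genes varied with the library. Of 17 tested collagen chains 14 lay above 0 (median 0.46), and 2 were higher at p under 0.05 (2.54% of all genes). Col18a1, the source of endostatin, had 97, 37 and 94 counts against 130, 294 and 1262 (2.84, SE 0.84), and Col4a2, a basement membrane chain, 34, 48 and 52 against 40, 206 and 593 (2.59, SE 0.91). In MΦs the collagen median was −0.18. Of 28 angiogenic and anti-angiogenic factors 4 were higher at p under 0.05 and none lower (2.54% and 2.47% of all genes). Pdgfb, the growth factor of pericytes, had 792, 962 and 676 against 1251, 1380 and 1699 counts (0.83, SE 0.22), and Spp1, osteopontin, 15885, 14509 and 18580 against 17434, 21503 and 41728 (0.71, SE 0.32). Itgav, the integrin αv that binds osteopontin, had 8194, 6344 and 9216 against 9231, 12793 and 13625 (0.61, SE 0.21).

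Among secreted factors, Ccl6, a chemokine of myeloid cells, had 1590, 1210 and 2210 counts against 1034, 735 and 937 (−0.84, SE 0.24), and Il1rn, the interleukin 1 receptor antagonist, 481, 427 and 238 against 180, 159 and 174 (−1.16, SE 0.39). Cx3cr1, the fractalkine receptor, had 2424, 1465 and 4238 against 3251, 6492 and 12774 and overlapped (1.48, SE 0.56). The 26 tested chemokines and receptors and the 26 tested cytokines had medians of 0.06 and 0.03. At p under 0.05, 1 chemokine or receptor was higher and 1 lower. Of the cytokines 2 were higher and 2 lower (2.54% and 2.47% of all genes). Tfrc, the transferrin receptor, had 2931, 3357 and 2626 against 1665, 2018 and 1570 counts (−0.74, SE 0.21), 1 of 2 iron genes of 16 that were lower at p under 0.05. In the other 13 lists, which cover Hedgehog and Notch signalling, guanylate-binding proteins, complement, Toll-like, Fc, scavenger and Slam receptors, glycolysis, sterols, lipids, antioxidants and the respiratory chain, medians were −0.27 to 0.21 and 0 to 2 members each had p under 0.05.

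Markers of other cells were checked as whole lists. Neutrophil granule genes were 153.8 to 254.6 CPM in wt and 115.1 to 369.1 CPM in BMI1-KO, with Ly6g at 0 in all 6 libraries. Of 9 tested members 3 were higher at p under 0.05 (2.54% of all genes). The BMI1-KO replicates had 255.1, 369.1 and 115.1 CPM. Ltf, lactoferrin, had 13, 25 and 50 counts in wt and 33, 451 and 55 in BMI1-KO, and without that library the list had a median of 0.29 and no member at p under 0.05. This was the library with the highest interferon-stimulated mean, and whether the neutrophil genes had a part in it was not tested. Monocyte genes gave 307 to 649 CPM in wt and 249 to 372 in BMI1-KO. Most single genes went the other way, with 8 of 12 tested above 0, a median of 0.24 and 0 at p under 0.05. B cell genes gave 302 to 363 and 163 to 259 CPM, with 6 members, among them Ms4a1, at 0 and most of the sum in Blnk, a signalling adaptor (2718, 2959 and 2619 against 1844, 1841 and 1362 counts). T and NK cell genes gave 188 to 391 and 124 to 254 CPM with Cd3e and 9 others at 0. Megakaryocyte, endothelial and stromal lists lay at 192 to 306, 92.4 to 144 and 52.7 to 114 CPM over both groups, and mast cell and erythroid lists at no more than 4.35 CPM in any library.

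The genotype effect was also measured in MΦs without myeloma cells. The labels do not say whether same-numbered MΦ and MM-MΦ libraries came from the same marrow, so this is no independent repeat. In MΦs 7 genes passed (0.0493%), of which 5 were higher (0.0352%) and 2 lower (0.0141%), and all 7 were among the 9 called in MM-MΦs. The 2 lower ones were Crip1 and Bmi1, whose BMI1-KO counts may not be measurements. Bmpr1a had 19, 46 and 29 counts in wt MΦs and 485, 509 and 539 in BMI1-KO MΦs, a log2 fold change of 4.02 (SE 0.34) against 4.01 (SE 0.34) in MM-MΦs. Igf2bp3 was at 3.39 (SE 0.49), Cdc42bpa at 2.31 (SE 0.28), Gdpd5 at 1.25 (SE 0.18) and Crip1 at −1.34 (SE 0.19). Cdkn2a had 1, 0 and 7 counts in wt MΦs and 133, 144 and 179 in BMI1-KO MΦs. B3galt5 (1.77, SE 0.42, adjusted p by edgeR = 0.351) did not pass in MΦs. B3galt5 had 15, 7 and 21 counts in wt and 36, 47 and 63 in BMI1-KO MΦs, and its interaction, the difference of the genotype effect between the cultures, had an unadjusted p of 0.0577 (edgeR adjusted p = 1.0).

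Over all genes the interaction gave 0 calls (0.00%) by edgeR at an adjusted p of 0.05, and 0 by DESeq2 and by limma-voom. At an unadjusted p under 0.05 there were 129 (0.909%). Sh3pxd2a had a log2 fold change of 0.74 in MM-MΦs and 0.33 (SE 0.14) in MΦs (interaction, edgeR adjusted p = 1.0). Hoxa7 had 0, 0 and 1 counts in wt MΦs and 28, 44 and 28 in BMI1-KO MΦs, beside the overlapping MM-MΦ libraries above (interaction, edgeR adjusted p = 1.0). For the genes named here, no genotype effect that depended on the myeloma cells was detectable with 3 libraries per group.

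**Figure D5:**
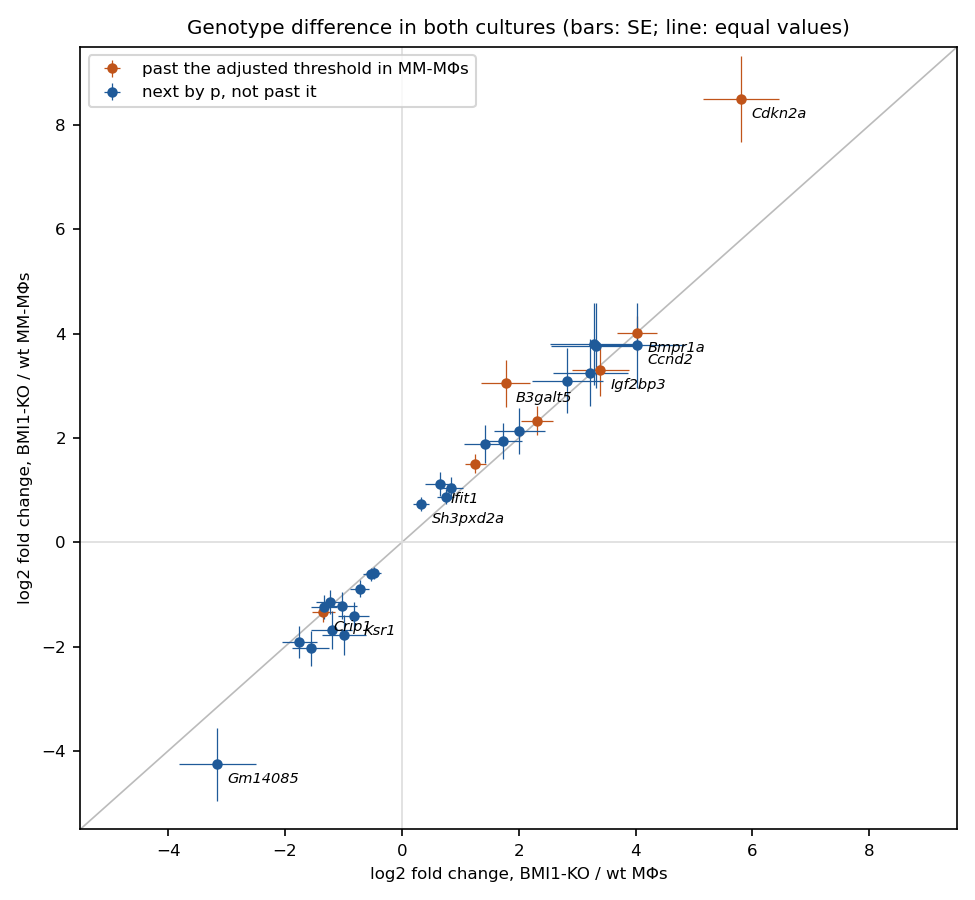
log2 fold change of BMI1-KO over wt in MM-MΦs (vertical) against MΦs (horizontal), with bars of 1 SE, for the 7 called genes described and the 24 next by p. Most points lie near the line of equal values. Cdkn2a (8.51 and 5.81) and B3galt5 (3.05 and 1.77) lie furthest above it, and their unadjusted interaction p are 0.0576 and 0.0577.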

How the data were processed

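The authors deposited raw counts per gene and FPKM values per library, made, by the submitters' notes, by alignment to GRCm38 (mm10) with HISAT2 2.0.1 and counting with HTSeq 0.6.1, after bcl2fastq 2.17.1.14 and trimming by cutadapt 1.9.1. No source used here gives the strand setting or the release of the annotation. The deposited FPKM values equal the count over exon length and a library total within rounding (0.005), and served for levels between genes. That total lay within 2 of the summed counts in wt libraries and exceeded them by 512 to 734 in BMI1-KO libraries. All tests used the counts, with edgeR 4.0.16 in R 4.3.3 (TMM, quasi-likelihood, filterByExpr with a minimum count of 10, means of all 4 groups in 1 model of 12 libraries, Benjamini-Hochberg threshold 0.05). SEs are log2 fold changes over the square root of F. Summed counts of 9776630 to 11142768 per MM-MΦ library leave genes under 10 counts imprecise. DESeq2 1.42.0, limma-voom 3.58.1, other scalings and filters, the replicate number as a block, and left-out libraries were alternatives. Simulated counts tested the fit.

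The comparison, the 60 gene lists and the rules were chosen with earlier results of these data known. Named genes were all called genes, the 12 higher and 12 lower ones next by p (mean of at least 5 CPM, no overlap), the 4 smallest p of each list described, 3 top markers of each cell type list and the genes the paper names. Cdk6, Ccnd3, Igf2bp2, Dlx2, Mx1, Isg15 and Procr were named after their values were seen. The paper's methods name DESeq2 for normalization and no test of single genes. In no library pair of a group did counts agree within sampling noise, and 0 value columns were left without a sample. The authors' comparisons were not used. Some genes that the rules name are not reported here.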

Additional observations from a re-analysis of the deposited data

How the results depend on the processing

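The comparison of MM-MΦs gave 9 calls, Bmi1 among them. It gave 9 with limma-voom, RLE scaling and a CPM filter and 10 with upper quartile scaling. With limma-voom B3galt5 lost its call (adjusted p = 0.12) and Lhx8 gained one, and in the 6 libraries alone Igf2bp3, Gdpd5, Crip1 and B3galt5 lost theirs (adjusted p = 0.151, 0.125, 0.344 and 0.238). DESeq2 gave 89, no filter on low counts 21, the 6 libraries alone 4 and a minimum log2 fold change of 1 gave 3. Leaving out 1 library gave 3 to 6, and leaving out both libraries numbered 1, 2 or 3 (an alternative chosen after seeing the data) gave 3, 2 and 2. In MΦs, with 7 calls, DESeq2 gave 80 and no filter 14. The interaction had 0 calls in every fit. Of 74 genes followed by value under these fits, Igf2bp2 alone changed sign, with a log2 fold change of −0.45 to 0.10 when 1 library was left out (0.0991 without wt replicate 2). The causes were not tested, beyond the smaller number of libraries or genes that some fits hold.

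With the replicate number as a block, calls rose to 181 in MM-MΦs, 59 in the 6 libraries alone and 206 in MΦs. At an unadjusted p under 0.05, 20 of 50 replication, 36 of 50 mitotic and 35 of 60 histone genes were then lower in BMI1-KO MM-MΦs, against 0, 0 and 2 without the block, and 0, 0 and 3 passed the adjusted test. Deviations of same-numbered wt and BMI1-KO MM-MΦ libraries correlated across genes at 0.50, 0.03 and 0.51. Those of wt replicate 1 with BMI1-KO replicate 3 and of wt replicate 3 with BMI1-KO replicate 1 were at −0.42 and −0.55. The numbers 1 and 3 thus shared a pattern across the genotypes, while number 2 did not. The labels do not say whether the numbers mark pairs, and these values do not decide it, so the main fit took no block. The counts above depend on that choice. wt replicate 2 correlated best with BMI1-KO replicate 1 (0.16) and not with its own number.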
